A study of Bos taurus with 252 samples.

Results

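Oxytetracycline is a tetracycline antimicrobial given to newly arrived cattle for metaphylaxis, the treatment of a whole group at risk of respiratory disease. The change that was followed here is the difference between the day 56 and the day 0 blood sample of the same steer, in 6 steers that received a single subcutaneous dose of oxytetracycline (OXYT) against the same difference in 6 untreated negative control steers (NC). The comparison rests on 24 libraries from 12 of the 42 steers of the series, each of which was sampled 6 times, and the model that tested it used all 72 libraries of both groups, which came from day 0 and from 5 later sampling days (3, 7, 14, 21 and 56). The series holds 5 further groups of 6 steers, which received ceftiofur (CEFT), enrofloxacin (ENRO), florfenicol (FLOR), tildipirosin (TILD) or tulathromycin (TULA). Day 0 blood was drawn before the dose, so a difference on day 0 cannot come from it. All steers, the NC steers included, had been vaccinated, dewormed, implanted with trenbolone acetate and estradiol and given tildipirosin during an earlier backgrounding period. All 12 steers were scored as Bos taurus. Each treatment had a pen of its own, those of treated steers also held untreated sentinel steers, the NC pen was processed first and the OXYT pen last on every sampling day after day 0, and all OXYT libraries were sequenced on lane 3 and all NC libraries on lane 1. Treatment, pen, order of handling and lane therefore cannot be told apart, although all libraries of a steer came from 1 lane. No steer was treated for disease during the trial.

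Tetracyclines bind the small subunit of bacterial ribosomes and keep aminoacyl-tRNA from entering. The ribosomes of mitochondria descend from those of bacteria, and they too can be inhibited by these drugs, which lowers the synthesis of the respiratory chain subunits that mitochondrial DNA encodes. Tetracyclines also inhibit matrix metalloproteinases, and they are known in cell culture to set off the integrated stress response through ATF4. In whole blood, messenger RNA comes mostly from lymphocytes, monocytes, granulocytes and platelets, so that a measured level depends on the cell counts as well as on each cell. In these bulk samples fewer cells of a type and less RNA per cell cannot be told apart.

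The 24 libraries held between 34.9 and 53.4 M counts, where M stands for 1000000, and their TMM scaling factors lay between 0.944 and 1.12. The label of whole blood was checked against its markers. CD3E of T cells (470 to 1230 CPM, counts per 1000000 after TMM scaling), MS4A1 of B cells, NKG7 of cytotoxic cells, CD14 of monocytes, CXCR2 of neutrophils, ITGA2B of platelets and HBB of red cells were detected in all 24 libraries, while ALB of liver was at 0 in 21 of them. The keratin KRT5 was at 0 in 14 libraries and reached 6.14 CPM, and ACTA1 of skeletal muscle reached 11.2 CPM. Hemoglobin transcripts took 0.0119% to 0.765% of the counts in OXYT on day 0 (median 0.172%) and 0.321% to 1.90% on day 56 (median 0.462%), against medians of 0.934% and 1.25% in NC.

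On day 56, 294 of 19056 genes tested (1.54%) had changed from day 0 differently in OXYT and NC steers, with the false discovery rate (FDR) held at 0.1. The change was higher in OXYT than in NC for 154 genes (0.808%) and lower for 140 (0.735%). At an unadjusted p under 0.05 there were 2525 genes. For 98 of the 294 genes (33.3%) the changes of the 6 OXYT steers did not overlap those of the 6 NC steers, which was so for 198 of all genes tested (1.04%). The same model gave 0 genes at FDR 0.1 on days 3, 7 and 21 by edgeR's quasi-likelihood test. An unadjusted p under 0.05 was found for 967, 1559 and 1281 genes on these days. On day 14 the count was 1, RPL3L, a ribosomal protein gene of muscle, named after its value was seen.

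The number of genes called depended on single steers and on the libraries in the model. Without OXYT steer 4 it fell to 18 and without NC steer 1 to 35, and it was 76 without OXYT steer 9, 101 without OXYT steer 5, 109 without NC steer 5, 120 without NC steer 12, 161 without OXYT steer 6 and 172 without NC steer 15. It rose to 471 without NC steer 13 and to 543 without OXYT steer 2. Without OXYT steer 1 and without NC steer 7 it was 303 and 247. When the model held the libraries of days 0 and 56 alone, with steer as block, 0 genes passed, although 2209 had an unadjusted p under 0.05. DESeq2 called 845 genes with the same design. After adjustment of the counts by lane with ComBat_seq, 132 genes passed.

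**Figure D1:**
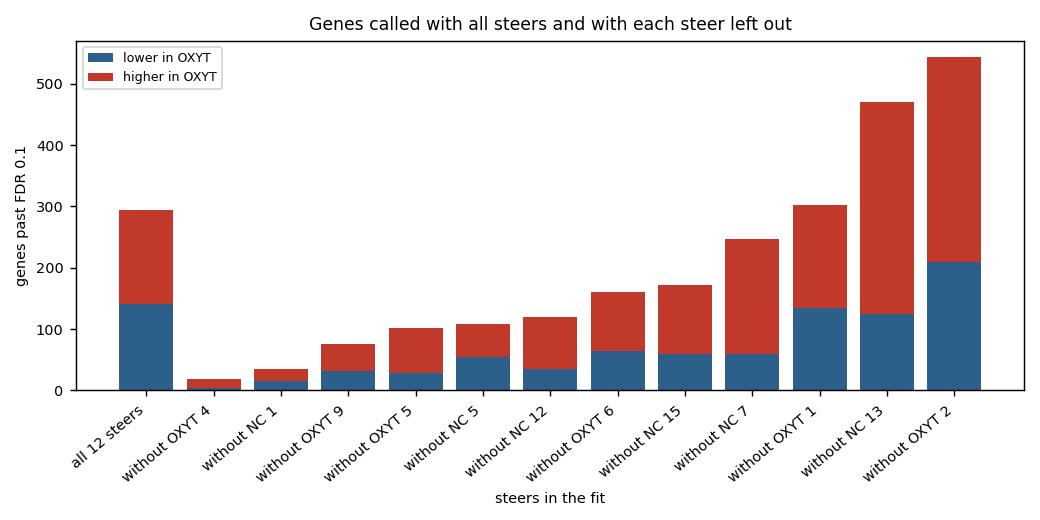
Number of genes past FDR 0.1 for the OXYT against NC change on day 56 (vertical axis) with all 12 steers and with each steer left out in turn (horizontal axis), with the genes whose change was lower in OXYT in blue and those higher in OXYT in red. The count is 294 with all steers and lies between 18 without OXYT steer 4 and 543 without OXYT steer 2.

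The called genes were split by how each group had moved. Among the 140 genes with a lower change in OXYT, 94 had fallen in OXYT and risen in NC as fitted, 41 had fallen in both groups and 5 had risen in both. Their median log2 change was -0.39 in OXYT and 0.10 in NC, and 119 of them changed within OXYT at FDR 0.1 against 51 within NC. Among the 154 genes with a higher change, 107 had risen in both groups, 45 had risen in OXYT and fallen in NC, and 2 had fallen in both. Their median change was 0.66 in OXYT and 0.15 in NC, and 142 changed within OXYT and 95 within NC. Blood changed widely over the 56 days in both groups: within OXYT 3991 genes rose (20.9%) and 4728 fell (24.8%), and within NC 3265 rose and 3316 fell. Typical differences were small, with a median absolute log2 difference of 0.46 over the 294 genes.

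The genes named next were taken by rank of p, 15 in each direction, from those with a mean level of at least 1 CPM. Since they were chosen by the size of their test, their values describe what was called and are not further evidence of it.

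The gene with the smallest p among those with a lower change was PYGL, which encodes the glycogen phosphorylase of liver and leukocytes, an enzyme that releases glucose units from glycogen. In OXYT it lay at 189 to 320.3 CPM on day 0 (median 276) and 148 to 257 CPM on day 56 (median 181), and in NC at 152 to 288 CPM on day 0 (median 200.5) and 196 to 368 CPM on day 56 (median 260.3). The log2 change of the OXYT steers ran from -0.90 to -0.035 (median -0.50) and that of the NC steers from -0.023 to 0.81 (median 0.34), so all OXYT steers lay below all NC steers, and the fitted difference was -0.87 (SE 0.17, FDR 0.0149). PGD, the phosphogluconate dehydrogenase of the pentose phosphate pathway, which forms NADPH, lay at 151 to 292 CPM on day 0 (median 245) and 127 to 292 CPM on day 56 (median 165) in OXYT. Its NC levels were 121 to 246 CPM on day 0 (median 186) and 132 to 343 CPM on day 56 (median 251.6). The groups' changes did not overlap, and the OXYT steer with the least change was at -0.0027, next to an NC minimum of 0.11. PGD differed by -0.82 (SE 0.17, FDR 0.0186) on the log2 scale.

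GSR, glutathione reductase, spends NADPH to regenerate glutathione. OXYT steers had 36.6 to 59.6 CPM on day 0 (median 43.8) and 27.2 to 38.3 CPM on day 56 (median 28.4), and NC steers 28.4 to 42.6 CPM on day 0 (median 35) and 28.7 to 50.6 CPM on day 56 (median 37.9). All 6 OXYT steers fell, 5 of them by more than any NC steer, and the difference was -0.71 (SE 0.15, FDR 0.0186). The glycolytic enzymes GPI and PGAM1 were looked up after these values were seen. They were also called, with log2 differences of -0.45 (FDR 0.0751) and -0.36 (FDR 0.0910), and each passed in 2 of the 12 models that left out 1 steer. Other enzymes of these pathways were not counted. PYGL overlaps ABHD12B in the RefSeq annotation, and the counts of the pair may not be fully separate.

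GSN, also among the 15, encodes gelsolin, which severs actin filaments. It lay at 200.3 to 305 CPM on day 0 (median 240.4) and 138 to 225 CPM on day 56 (median 162) in OXYT and at 150.2 to 226 CPM on day 0 (median 188) and 170.3 to 263 CPM on day 56 (median 222) in NC. Every OXYT steer fell, with log2 changes of -1.14 to -0.10, while NC steers changed by -0.029 to 0.61, and the difference was -0.80 (SE 0.17, FDR 0.0193). CAP1, a cyclase-associated protein that recycles actin monomers, differed by -0.51 (SE 0.10, FDR 0.0149), with changes that ran from -0.52 to -0.065 (median -0.24) in OXYT and from 0.083 to 0.38 (median 0.23) in NC. Beta actin itself (ACTB, -0.64), talin (TLN1, -0.64) and vinculin (VCL, -0.74), which tie integrins to actin, the scaffold IQGAP1 (-0.61) and the actin bundling protein LCP1 (-0.39) were chosen after their values were seen, and all 5 were called, with FDR values from 0.0372 to 0.0895. With 1 of the 12 steers left out in turn, ACTB passed in 8 cases, VCL in 6, TLN1 in 4 and IQGAP1 and LCP1 in 2, and actin-related genes that were not called were not counted.

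The 15 genes also held VPS41, a subunit of the complex that tethers late endosomes to lysosomes, the coatomer subunit COPG2 and GGA2, a clathrin adaptor of the Golgi. VPS41 changed from -0.53 to -0.19 (median -0.37) in OXYT and from -0.11 to 0.25 (median 0.053) in NC, with a difference of -0.42 (SE 0.089, FDR 0.0193). COPG2 had a fitted change of -0.0036 in OXYT and rose by 0.42 in NC, a difference of -0.43 (FDR 0.0237). GGA2 fell by 0.21 in OXYT and rose by 0.25 in NC (difference -0.47, FDR 0.0356). COPG2 overlaps MEST in the annotation.

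The other leading genes with a lower change had single functions. FIP1L1, a polyadenylation factor, differed by -0.44 (FDR 0.0356). PRKAR1A, a regulatory subunit of protein kinase A, fell by 0.43 in OXYT and had a change of -0.060 in NC, which did not pass within NC. TBC1D1, a Rab GTPase-activating protein of glucose transporter traffic, fell by 0.47 in OXYT, with a change of -0.020 in NC. For FIP1L1, PRKAR1A and TBC1D1 all 6 OXYT steers were below all 6 NC steers. Over the 15 genes the exact permutation test on the 6 and 6 changes gave two-sided p-values from 0.00216, the smallest that 924 arrangements allow, to 0.0130.

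**Figure D2:**
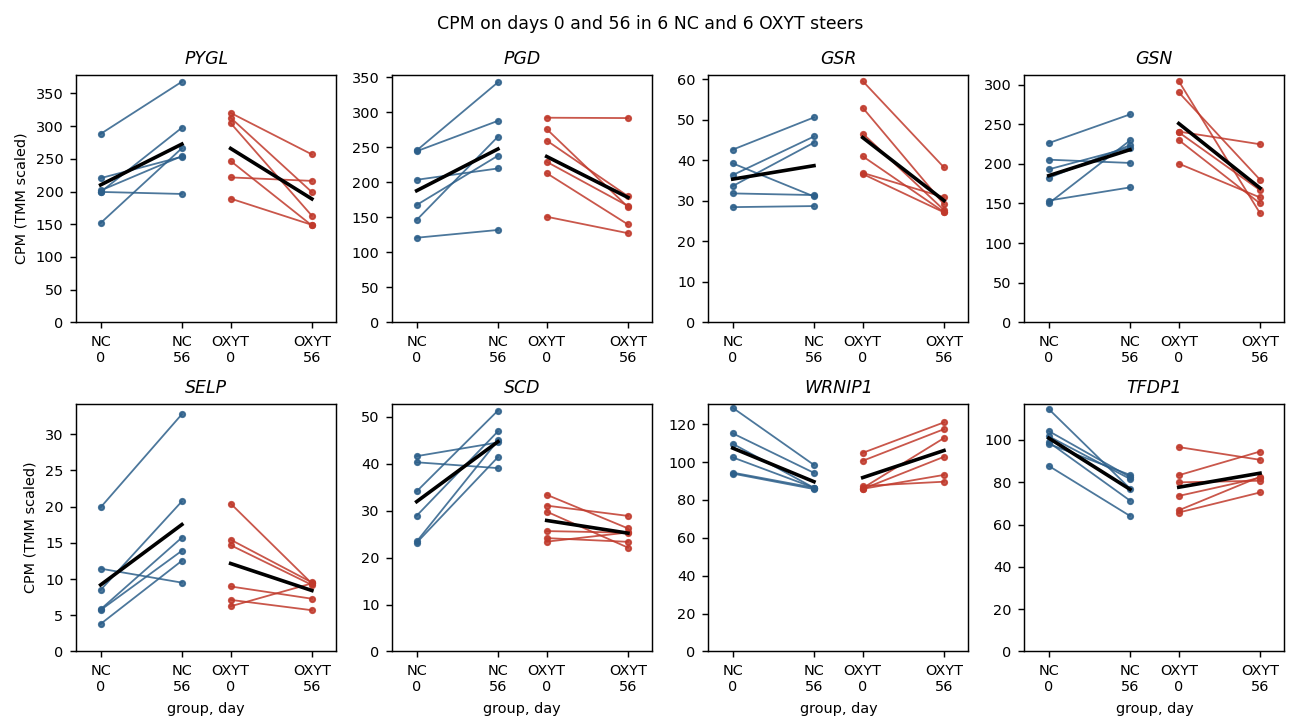
CPM after TMM scaling (vertical axes, from 0) on days 0 and 56 (horizontal axes) for 6 genes with a lower and 2 with a higher change in OXYT; each coloured line is 1 steer, blue for NC and red for OXYT, and the black line joins the group means. PYGL, PGD and GSN fell in the OXYT mean and rose in the NC mean, while WRNIP1 and TFDP1 rose in the OXYT mean and fell in the NC mean.

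Platelet genes had the lowest median difference of the cell lists. SELP encodes P-selectin, which platelets store in their granules and expose on activation to bind leukocytes. Levels were 6.24 to 20.4 CPM on day 0 (median 11.8) and 5.69 to 9.53 CPM on day 56 (median 9.29) in OXYT and 3.80 to 19.9 CPM on day 0 (median 7.15) and 9.50 to 32.7 CPM on day 56 (median 14.8) in NC. In NC 5 steers rose and 1 fell, while 5 OXYT steers fell and 1 rose, and the difference of -1.40 (SE 0.31, FDR 0.0307) was the most negative among the 15 genes. CD9, a tetraspanin abundant on platelets, differed by -0.87 (SE 0.19, FDR 0.0346), with only 2 OXYT steers below all NC steers. Of 17 platelet genes tested, 0 were called with a higher and 2 with a lower change, SELP and F13A1, the A subunit of clotting factor XIII (-0.79, FDR 0.0646), against 0.735% of all genes tested called lower. F13A1 passed in 5 of the 12 models that left out 1 steer (FDR up to 0.256). CD9 is not on that list. The median of the list was -0.66, against -0.021 over all genes tested, and 16 of the 17 lay below 0. The summed platelet level ran from 1332 to 3371 CPM in OXYT on day 0 and from 1252 to 2428 on day 56, and in NC from 1411 to 2267 and from 1498 to 3049. F13A1 is part of this sum, at a mean log2 CPM of 9.60 in OXYT on day 0. Which cells its counts came from was not tested. The median change of the list was -0.20 in OXYT and 0.53 in NC, and on day 0 its level was higher in OXYT by a median of 0.44. No platelet marker in the check of cell types was at 0 in any library. The part of platelet RNA in the lower change of GSN, TLN1, VCL and the other genes above, some of which platelets also express, was not tested.

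SCD encodes stearoyl-CoA desaturase, which makes monounsaturated fatty acids. It lay at 23.4 to 33.4 CPM on day 0 (median 27.7) and 22.1 to 28.9 CPM on day 56 (median 25.3) in OXYT and at 23.2 to 41.6 CPM on day 0 (median 31.5) and 39.1 to 51.4 CPM on day 56 (median 44.8) in NC, so that on day 56 every OXYT steer was below every NC steer. The change ran from -0.43 to 0.12 (median -0.077) in OXYT and from -0.045 to 0.94 (median 0.64) in NC, with 4 OXYT steers below all NC steers and a difference of -0.66 (SE 0.15, FDR 0.0356). With 1 steer left out its FDR ranged from 0.0234 to 0.156, and it passed 0.1 in the other cases but not without NC steer 1, NC steer 12 or OXYT steer 4. Of 20 genes of fatty acid synthesis, 2 were called with a lower change, SCD and ACSS2 (-0.41, FDR 0.0730), which makes acetyl-CoA from acetate, and 0 with a higher one (0.735% of all genes tested were called lower). ACSS2 passed in 2 of the 12 models that left out 1 steer (FDR up to 0.254). The list had a median difference of -0.37, with a median change of -0.072 in OXYT and 0.31 in NC.

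Genes of sterol synthesis had mostly lower changes in OXYT. Of 24 tested, 14 rose and 0 fell within NC, and 5 rose and 3 fell within OXYT. The difference passed for 2 genes, both lower, the epoxidase SQLE (-0.44, FDR 0.0587) and the dehydrogenase NSDHL (-0.31, FDR 0.0624), and 19 of the 24 lay below 0 (median -0.23). Of all genes tested, 0.735% were called lower. SQLE passed in 5 and NSDHL in 4 of the 12 models without 1 steer. CYP51A1, the lanosterol demethylase of the pathway, did not pass. Its level was 29.6 to 61.4 CPM on day 0 (median 48.7) and 33.7 to 58.2 CPM on day 56 (median 46.2) in OXYT, and 39.5 to 59.9 CPM on day 0 (median 54.4) and 58.4 to 77.7 CPM on day 56 (median 71.6) in NC. All 6 OXYT changes lay below all 6 NC changes. The groups' changes did not overlap, in either direction, for 1.04% of all genes tested. The fitted difference of CYP51A1 was -0.44 (SE 0.14, FDR 0.117).

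SCD, CYP51A1, PSMD1, NUP133 and KLF11 are the genes behind the study's functional terms for oxytetracycline at the last sampling, and a list chosen on these samples is not independent evidence of its direction. PSMD1 encodes a subunit of the regulatory particle of the proteasome. It had 53.6 to 65.4 CPM on day 0 (median 57.4) and 35.8 to 46.5 CPM on day 56 (median 39.2) in OXYT, and 55.9 to 69.4 CPM on day 0 (median 61.8) and 51.4 to 64.2 CPM on day 56 (median 57.6) in NC. OXYT steers 4, 5, 6 and 9 changed by -0.78, -0.73, -0.50 and -0.59, below all NC steers, and OXYT steers 1 and 2 by -0.21 and -0.26, within the NC range. The difference was -0.39 (SE 0.11, FDR 0.0895). PSMD1 passed in 3 of the 12 models that left out 1 steer (FDR up to 0.318). Among 41 proteasome genes PSMD1 was the single one called, against 0.735% of all genes tested called lower. The median of the list was -0.030, next to that of all genes.

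NUP133, a scaffold subunit of the nuclear pore, had 22.3 to 25.8 CPM on day 0 (median 25.2) and 13.1 to 20.9 CPM on day 56 (median 16.3) in OXYT and 21.9 to 29.4 CPM on day 0 (median 25.3) and 22.3 to 26.2 CPM on day 56 (median 23.4) in NC. On day 56 no OXYT steer reached the NC range, and the changes did not overlap either (difference -0.50 (SE 0.15, FDR 0.0901)). NUP133 passed in 2 of the 12 models that left out 1 steer (FDR up to 0.312). OXYT steers 4, 5, 6 and 9 changed most, by -0.86, -0.65, -0.95 and -0.56, against -0.25 and -0.27 in steers 1 and 2. The split was read from the values, and PSMD1 was measured in the same libraries, so the 2 genes are not independent. Of 26 nuclear pore genes, 2 were called with a lower change, NUP133 and NUP50 (-0.34, FDR 0.0385), a mobile subunit that assists import, and 0 with a higher one (0.735% of all genes tested were called lower). Their median was -0.13, and 16 fell within OXYT against 9 within NC. KLF11, a Krüppel-like transcription factor, did not pass. It fell by 0.88 in OXYT and by 1.76 in NC, a difference of 0.88 (SE 0.34, FDR 0.215), and on day 56 it stood at 8.20 to 25.5 CPM in OXYT and 4.01 to 7.24 in NC.

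Among the genes with a higher change in OXYT, WRNIP1 had the smallest p. It encodes an ATPase that acts at stalled replication forks together with the Werner helicase. Levels were 85.8 to 105 CPM on day 0 (median 86.8) and 89.7 to 121 CPM on day 56 (median 108) in OXYT and 93.9 to 129 CPM on day 0 (median 106) and 85.8 to 98.5 CPM on day 56 (median 86.5) in NC. All 6 OXYT steers rose and all 6 NC steers fell, so the changes did not overlap, and the difference was 0.46 (SE 0.075, FDR 0.00245). TFDP1, the partner of E2F factors in transcription for the cell cycle, had 65.7 to 96.6 CPM on day 0 (median 76.7) and 75.2 to 94.5 CPM on day 56 (median 82.3) in OXYT and 87.7 to 115 CPM on day 0 (median 100.3) and 64.1 to 83.5 CPM on day 56 (median 79.3) in NC. All of its NC steers fell, 5 of 6 OXYT steers rose, and the difference was 0.52 (SE 0.092, FDR 0.00623). In both genes the day 0 levels were lower in OXYT than in NC, by 0.23 and 0.38 on the log2 scale, although neither passed FDR 0.1 on that day.

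Further genes rose within OXYT. POMGNT2, an enzyme of O-mannosyl glycans, rose from 4.04-6.60 to 7.91-10.5 CPM in OXYT, a log2 change of 0.75, against 0.047 in NC. The groups' changes did not overlap, and the difference was 0.70 (SE 0.14, FDR 0.0186). SLC41A3, of a family of magnesium transporters, went from 11.8-22.4 to 23.9-37.9 CPM in OXYT and from 13.1-17.9 to 16.6-25.1 in NC. It rose in both groups, and 5 OXYT steers rose by more than any NC steer (difference 0.67 (SE 0.13, FDR 0.0149)).

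CPSF4, a subunit of the complex that cleaves the 3' end of messenger RNA, differed by 0.43 (FDR 0.0108), ZNHIT3, an assembly factor of small nucleolar ribonucleoproteins, by 0.41 (FDR 0.0186), and MIGA2, which promotes fusion of mitochondria, by 0.40 (FDR 0.0163). KLHL36, a kelch-like adaptor protein, had a change of 0.28 in OXYT and -0.034 in NC, and a difference of 0.31 (FDR 0.00852). ZNF74, a zinc finger protein (0.66), the stress kinase MAP3K12 (0.54) and MAPK8IP3, a scaffold of the JNK pathway (0.57), also had a higher change in OXYT. The remaining genes of the 15 were DLEC1 (0.75), CYHR1 (0.47) and the uncharacterized loci LOC112446759 (0.45), which overlaps CHD4, and LOC112442657 (0.42). Changes did not overlap between groups for 9 of these 15 genes and for 8 of the 15 with a lower change, against 1.04% of all genes tested. The genes were chosen by p on these same changes, which favours such a gap. SLC41A3 overlaps ZXDC and ZNHIT3 overlaps MYO19 in the annotation.

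Of the 30 genes, 13 stayed past FDR 0.1 whichever 1 of the 12 steers was left out, 2 of them with a lower change (PYGL, FDR 0.00365 to 0.0704, and GSR, 0.0116 to 0.0877) and 11 with a higher one, among them WRNIP1 (0.00136 to 0.0330). 0 of the 30 passed in the model of days 0 and 56 alone or without steer as a block, and 30 passed when all libraries of the 42 steers were in the model. No difference of the 30 changed sign under any setting tried. All settings reuse these libraries, in whole or in part, and the genes were chosen for a small p, which favours a kept sign.

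The genes called were compared with all genes tested by their level and length, with no test. For those with a lower change the median level was 104.9 CPM, against 41 for those with a higher change and 9.50 over all genes tested, and the median span in the RefSeq annotation was 56131.5 bases, against 14380 and 19038. An entry was found for 136 of the 140 and for 138 of the 154 genes (97.1% and 89.6%, against 88.8% of the genes tested). Genes with a ZNF, ZKSCAN or ZSCAN symbol, most of which encode zinc finger transcription factors, were 6 of the 154 (3.90%), 0 of the 140 and 1.55% of the genes tested.

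The mitochondrial genome, which tetracyclines reach through the mitochondrial ribosome, gave 3 calls, all among tRNA genes. None of its 13 protein genes was called by edgeR's quasi-likelihood test, 12 of the 13 lay above 0, and the median difference was 0.29. Both groups had higher levels on day 56, with 10 of the 13 genes risen within OXYT and 8 within NC. COX3 and ATP8 were left out of the summed level, a choice made after seeing the data. COX3 was either at 131 to 386 counts (17 libraries) or at 156181 to 317329 (7 libraries), with nothing between. ATP8 ran from 1748 to 49465 counts in OXYT on day 56 and from 507 to 43309 in NC. The sum of the other 11 genes changed by 0.17 to 0.95 on the log2 scale in OXYT (median 0.73) and by 0.26 to 1.05 in NC (median 0.31), so the groups overlapped. Of 77 genes for mitochondrial ribosomal proteins 1 was called, MRPL53 (0.29, FDR 0.0527, higher), with a median of 0.12, and of 75 nuclear genes of oxidative phosphorylation 1, the complex I subunit NDUFC1 (0.77, FDR 0.0507, higher), with a median of 0.094. The 0.808% of all genes called higher amounts to less than 1 gene in either list. NDUFC1 fell by 0.62 in NC and had a change of 0.15 in OXYT, which did not pass within OXYT.

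Looking through all 37 mitochondrial genes, of which 33 were tested, 3 were called, all higher and all tRNA genes that lie next to one another, KEH36_t08 (1.02, FDR 0.0684), KEH36_t09 (1.04, FDR 0.0356) and KEH36_t10 (0.76, FDR 0.0898). Of all genes tested, 0.808% were called higher. In the 12 models that left out 1 steer, KEH36_t08 passed in 6 (FDR up to 0.224), KEH36_t09 in 11 (up to 0.156) and KEH36_t10 in 3 (up to 0.269). KEH36_t09 rose from 1.26-2.52 to 2.21-6.39 CPM in OXYT, and in NC it was at 1.41-2.26 and 1.73-2.77 CPM. All OXYT changes lay above all NC changes, and a gap in either direction was found for 1.04% of all genes tested. A tRNA is shorter than a read, the libraries were made from polyadenylated RNA, and neighbouring genes lie on long precursor transcripts, so these counts may belong to precursors. The median over the 18 mitochondrial tRNA genes tested was 0.037. Also called with a higher change were GTPBP3 (0.35, FDR 0.0510) and TRMU (0.32, FDR 0.0936), which modify mitochondrial tRNAs, and NSUN4 (0.34, FDR 0.0356), a methyltransferase of the small ribosomal subunit of mitochondria. These 3 genes and the tRNA genes were picked after their values were seen, with no count of other such enzymes, and TRMU passed in 3 of the 12 models that left out 1 steer (FDR up to 0.249).

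The other reported targets of tetracyclines gave 1 call. Of 28 genes of the integrated stress response 1 was called, HSPA9 (-0.36, FDR 0.0830), the mitochondrial HSP70, with a lower change, and the median was -0.15. HSPA9 passed in 3 of the 12 models that left out 1 steer (FDR up to 0.353), and the 0.735% of all genes called lower amounts to less than 1 gene of the list. Of 14 matrix metalloproteinase genes 0 were called by edgeR's quasi-likelihood test (median -0.31).

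Cytosolic ribosomal protein genes lay mostly on the higher side without any of them passing. Of 78 tested, 68 had a difference above 0 with a median difference of 0.37, and 0 were called by edgeR's quasi-likelihood test in either direction. The median was 0.21 after ComBat_seq by lane, and without 1 steer it ran from 0.32 to 0.51. DESeq2 called 3, all higher, and without OXYT steers 1 and 2 there were 1 and 4 higher calls. Within OXYT 59 rose and 1 fell, and within NC 23 rose and 0 fell. Their summed level on day 56 was 77760, 72890, 88770 and 76480 CPM in OXYT steers 4, 5, 6 and 9, and 55740 and 48970 in OXYT steers 1 and 2, against 53140 to 65360 in NC. The former 4 steers stood above all NC steers and the latter 2 within or below their range. On day 0 OXYT and NC overlapped (35520 to 53500 and 36910 to 54270 CPM). Such levels were not particular to OXYT. With the steers of all groups on one scale, which shifts the sums slightly, OXYT steer 5 stood at 73180 CPM on day 56. A FLOR steer (85300 CPM) and a TILD steer (76630 CPM) stood above it, and every other steer outside OXYT at or below 69940 CPM. The sum of a CEFT steer had a log2 change of 1.083, as did that of OXYT steer 5. RPS12, of the small subunit, changed by 1.46, 1.55, 1.41 and 1.39 in OXYT steers 4, 5, 6 and 9. In OXYT steers 1 and 2 it changed by 0.22 and 0.26. Its difference from NC was 0.83 (SE 0.29, FDR 0.160). Ribosomal protein genes have many processed copies in the genome, and how the counting divided reads among them is uncertain.

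**Figure D3:**
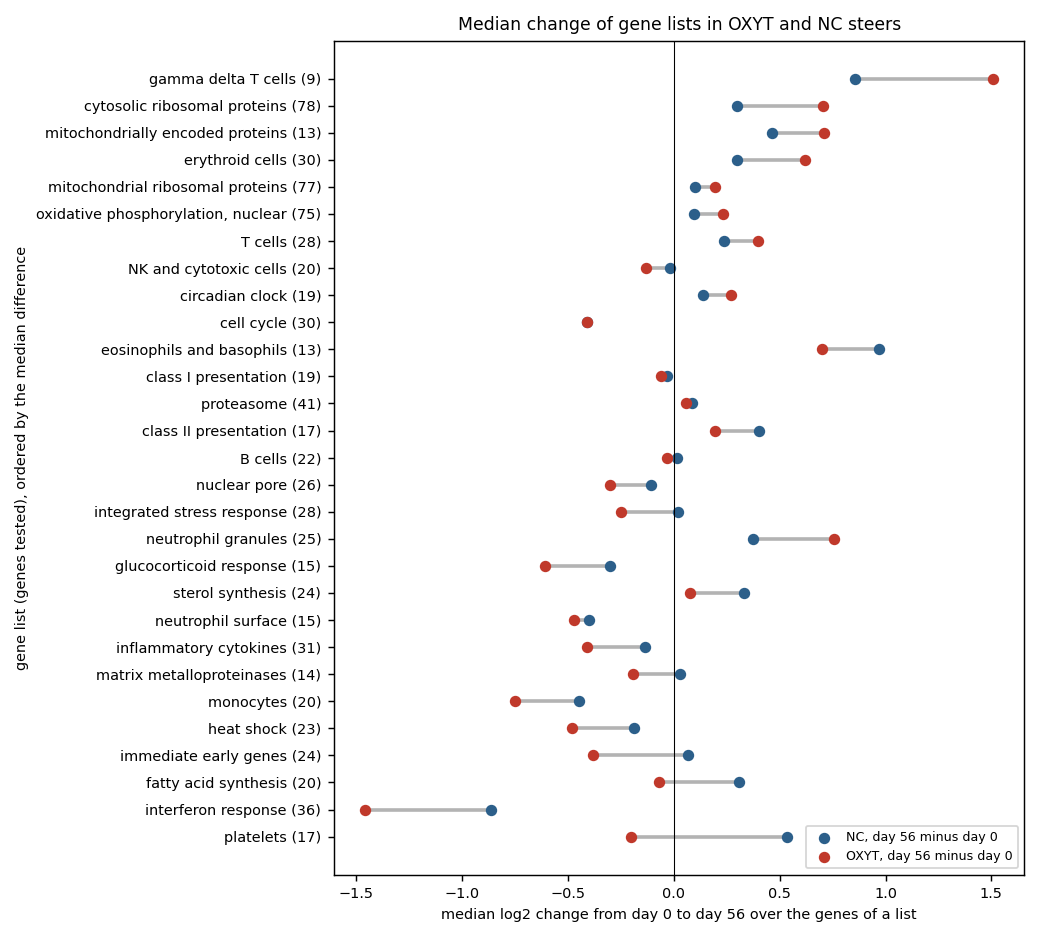
Median log2 change from day 0 to day 56 (horizontal axis) over the genes of each list (vertical axis, with the number of genes tested), in NC (blue) and OXYT (red), ordered by the median difference; for cell cycle genes both points coincide. Cytosolic ribosomal protein genes had medians of 0.30 in NC and 0.70 in OXYT, interferon genes of -0.86 and -1.46, and platelet genes a median of 0.53 in NC and -0.20 in OXYT.

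Lists of leukocyte markers gave 0 calls by edgeR's quasi-likelihood test for monocytes (20 genes, median -0.34), B cells (22, -0.13), T cells (28, 0.091), gamma delta T cells (9, 0.57), NK and cytotoxic cells (20, 0.080), neutrophil granules (25, -0.15), neutrophil surface proteins (15, -0.25), eosinophils and basophils (13, -0.013) and erythroid cells (30, 0.18). Monocyte markers fell in both groups, 16 of 20 within OXYT and 11 within NC. Their summed level was 4051 to 8811 CPM on day 0 and 2692 to 4188 CPM on day 56 in OXYT, and 3836 to 5457 and 2357 to 4562 CPM in NC. WC1.3, of a receptor family of gamma delta T cells, which are frequent in cattle blood, rose by 1.52 in OXYT and 0.86 in NC (difference 0.66 (SE 0.20, FDR 0.110)). Its mean log2 CPM was 5.81 in OXYT and 6.73 in NC on day 0, and 7.34 and 7.58 on day 56. The gamma delta T cell list had a median level difference, OXYT against NC, of -0.62 on day 0 and -0.20 on day 56. PYGL, PGD, GSR, ACTB, TLN1 and LCP1 are expressed in monocytes and granulocytes too, and the part of these cells in their lower change was not tested. Genes of skin, hair and muscle, which blood should lack, had 0 calls among 19 (median -0.46), and their median ran from -1.49 to 0.47 over the settings tried, so it has no stable direction. The median of neutrophil granule genes also changed sign, from -0.27 without OXYT steer 2 to 0.22 without steer as block, and that of eosinophil and basophil genes ran from -0.097 to 0.19.

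Interferon and activation genes had low medians but hardly any call. All but 2 of 36 interferon response genes lay below 0 (median -0.62), and 0 were called by edgeR's quasi-likelihood test. They fell in both groups, 31 of 36 within OXYT and 22 within NC, and on day 0 their level was higher in OXYT than in NC by a median of 0.60. The median difference of the list was -0.17 without OXYT steer 5 and -0.38 after ComBat_seq by lane, and -0.83 without steer as block. EIF2AK2, the RNA-dependent kinase PKR, had 89.3 to 567 CPM on day 0 (median 199) and 49.9 to 83.2 CPM on day 56 (median 61.9) in OXYT and 103 to 239 CPM on day 0 (median 162) and 64.7 to 107 CPM on day 56 (median 83) in NC. OXYT steer 5 held the highest day 0 level, 567 CPM, and the groups overlapped on both days.

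Immediate early genes, which cells induce within minutes of a stimulus, lay below 0 in all 24 cases, with a median of -0.35 and 0 calls by edgeR's quasi-likelihood test (EGR1 -1.29, FDR 0.153). Their median level difference, OXYT against NC, was 0.29 on day 0, before the dose, and -0.0073 on day 56. Against CEFT 14 of the 24 lay below 0, and against the 5 other treated groups 17. Of 31 genes of inflammatory cytokines and their signals 1 was called, NFKB1, a subunit of NF-kappaB, with 132 to 167 CPM on day 0 (median 148) and 86.1 to 117 CPM on day 56 (median 96.3) in OXYT and 121 to 134 CPM on day 0 (median 127) and 120.3 to 141 CPM on day 56 (median 128) in NC. Every OXYT steer fell by more than any NC steer, and the difference was -0.59 (SE 0.14, FDR 0.0406). Of 23 heat shock genes 2 were called, both lower, HSP90AB1, a cytosolic HSP90 (-0.36, FDR 0.0406), and HSPA9, with a list median of -0.35. The chaperone CALR was the single call among 19 class I presentation genes (-0.46, FDR 0.0716; median -0.026), and the mitotic kinase PLK1 the single one among 30 cell cycle genes, with a higher change (0.37, FDR 0.0715; median 0.025). Class II presentation (17 genes, -0.10), glucocorticoid response (15, -0.17), circadian clock genes (19, 0.043) and the 6 genes behind the study's functional terms for the first sampling after treatment (-0.087) had 0 calls by edgeR's quasi-likelihood test. The background of 1.54% amounts to less than 1 gene in each of these lists. With 1 of the 12 steers left out in turn, NFKB1 passed in 8 cases, HSP90AB1 and PLK1 in 7 and CALR in 4. The medians of class I presentation, cell cycle, proteasome and first sampling genes, all near 0, changed sign between settings.

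The differences of the leading genes were followed over the sampling days. For the 15 genes with a lower change, the median differences on the 5 later sampling days, from day 3 to day 56, were -0.078, -0.16, -0.26, -0.22 and -0.51. For the 15 with a higher change they were 0.14, 0.13, 0.20, 0.26 and 0.47. The genes were chosen by p on day 56, which favours a larger difference on that day than on earlier ones. All days are set against the same day 0 libraries, so the days are not independent of one another. None of the 30 genes passed FDR 0.1 on an earlier day. SELP stood at -1.15 on day 14 and at -1.40 on day 21, next to the day 56 value of -1.40. SCD stood at -0.59 on day 3 and at -0.21, -0.39 and -0.31 on days 7, 14 and 21, before the day 56 value of -0.66. PYGL stood at -0.093, -0.16, -0.55 and -0.40 on days 3, 7, 14 and 21. Over all 140 and 154 called genes the medians were -0.10 and 0.13 on day 3 and -0.17 and 0.23 on day 21.

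**Figure D4:**
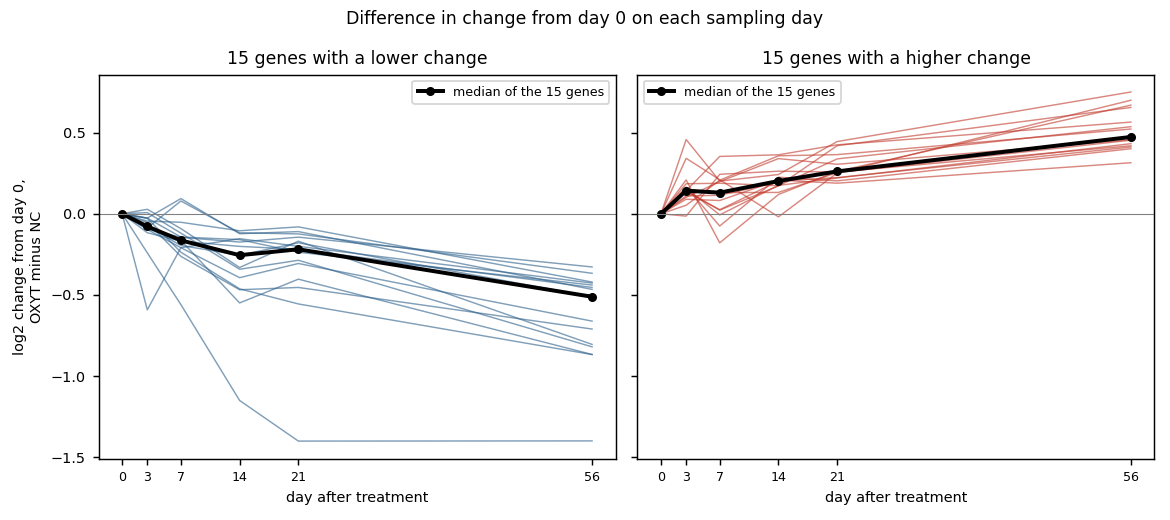
Difference between OXYT and NC in the log2 change from day 0 (vertical axis) on days 3 to 56 (horizontal axis) for the 15 genes with a lower change (left) and the 15 with a higher change (right); thin lines are genes, the black line is their median, and day 0 is 0 by construction. The median reached -0.51 and 0.47 on day 56, the lowest thin line on day 3 is SCD, at -0.59, and the lowest on day 56 is SELP, at -1.40. The genes were chosen by p on day 56, which favours a larger median on that day.

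Starting levels were compared next. On day 0, before treatment, 0 genes (0%) differed between OXYT and NC at FDR 0.1 by edgeR's quasi-likelihood test, 1036 had an unadjusted p under 0.05, and DESeq2 called 51. Genes with a lower change were higher in OXYT on day 0 in 131 of 140 cases, with a median log2 difference of 0.16, and their day 56 median was -0.31. Genes with a higher change were lower in OXYT on day 0 in 142 of 154 cases (median -0.14), and their day 56 median was 0.33. Since day 0 is subtracted, a deviation on that day enters the change with the opposite sign. On day 56 the level differed for 2 genes (0.0105%), both lower in OXYT, with 2268 at an unadjusted p under 0.05. DESeq2 called 717 and the likelihood ratio test of edgeR 111 for this level. SCD was lower by 0.81 on the log2 scale (FDR 0.00818), after a day 0 difference of -0.20. DCUN1D3, which assists the neddylation of cullins, was lower by 3.46 (FDR 0.0384), but its change from day 0 did not pass (-3.29, SE 1.21). Without OXYT steer 1 the day 56 count rose to 346 genes, and it was 1 gene without NC steer 12, NC steer 13, OXYT steer 2, OXYT steer 5 or OXYT steer 6.

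CEFT was the other group sequenced wholly on lane 3, and the OXYT change was set against it in the same way. 0 genes (0%) passed FDR 0.1 by edgeR's quasi-likelihood test, 1598 had an unadjusted p under 0.05, and DESeq2 called 82. Without OXYT steer 2 the count was 20. This comparison shares the OXYT steers with the one against NC, so their values are given side by side and do not support one another. Over the 140 genes with a lower change against NC, the median difference against CEFT was -0.23, and over the 154 with a higher change it was 0.31. PYGL differed from CEFT by -0.32 (SE 0.21), PGD by -0.46 (SE 0.17), SCD by -0.44 (SE 0.18) and SELP by -0.0071 (SE 0.37). TFDP1 stood at 0.060 (SE 0.10) and WRNIP1 at 0.14 (SE 0.086).

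Against the mean change of the 5 other treated groups, in a model of all libraries of the 42 steers that leaves the NC steers out of the contrast, 662 genes passed FDR 0.1, 427 with a higher change in OXYT (2.24%) and 235 with a lower one (1.23%), and 2676 had an unadjusted p under 0.05. With hemoglobin genes left out before scaling the split was 363 higher and 320 lower. The count also depended on single OXYT steers. It was 12 without steer 4, 112 without steer 5, 206 without steer 9 and 370 without steer 6, and 1008 and 1203 without steers 1 and 2. The balance of directions turned as well, with 159 higher and 211 lower without steer 6 and 88 higher and 118 lower without steer 9. The OXYT steers are again shared with the comparison against NC. Cytosolic ribosomal protein genes passed here in 34 of 78 cases, all higher, with a median of 0.48 against 0.024 over all genes. RPS12 differed by 0.91 (FDR 0.00300) and RPL38, of the large subunit, by 0.75 (FDR 0.00310). The count of 34 was 4 without OXYT steer 4, 13 without steer 9 and 17 without steer 5 or steer 6, it was 44 and 45 without steers 1 and 2, and the list median stayed between 0.39 and 0.60. RPS12 and RPL38 passed whichever OXYT steer was left out. After ComBat_seq by lane 6 of the 78 passed, and 6 without steer as block.

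Of the other lists in that comparison, nuclear genes of oxidative phosphorylation had 12 higher and 0 lower of 75, mitochondrial ribosomal proteins 8 and 0 of 77, and T cell genes 3 and 0 of 28, with the T cell receptor subunit CD3D at 0.40 (FDR 0.00964). Nuclear pore genes had 0 higher and 5 lower of 26, with NUP133 at -0.37 (FDR 0.0273), and heat shock genes 0 and 3 of 23. Over all genes tested, 2.24% were called higher and 1.23% lower in that comparison. NFKB1 differed by -0.43 (FDR 0.00848), PGD by -0.61 (FDR 0.00913) and PSMD1 by -0.31 (FDR 0.0236). SCD (-0.33, FDR 0.263), SELP (-0.42, FDR 0.625) and WRNIP1 (0.22, FDR 0.155) did not pass against this reference. Without steer as block all of these lists had 0 calls. Without OXYT steer 4 they also had 0 calls, and NFKB1, PGD, PSMD1, NUP133 and CD3D no longer passed (FDR 0.113 to 0.232). PSMD1 and NUP133 were also lost without steer 5 (0.186 and 0.124), NUP133 without steer 6 (0.116) and CD3D without steer 9 (0.117). With other OXYT steers left out, oxidative phosphorylation had 0 to 16 calls, mitochondrial ribosomal proteins 1 to 13, T cell genes 0 to 6, nuclear pore genes 0 to 9 and heat shock genes 1 to 4. Platelet genes had a median of -0.078 and sterol synthesis genes of -0.078 here. Further lists had calls too, among them monocytes (0 higher and 2 lower of 20) and eosinophils and basophils (0 and 2 of 13). Class I presentation had 0 and 2 of 19, and neutrophil granules 2 and 0 of 25. Interferon genes had the lowest median, -0.80, with 0 higher and 1 lower of 36.

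**Figure D5:**
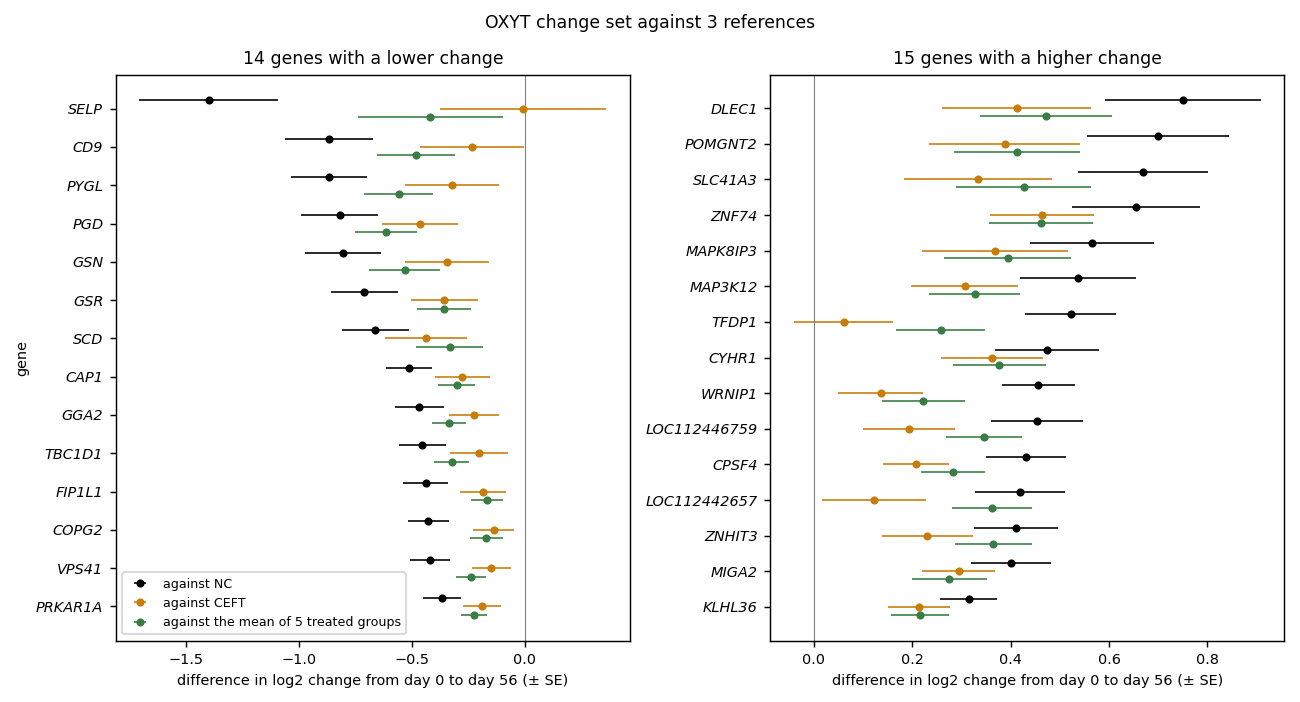
Difference in log2 change from day 0 to day 56 between OXYT and 3 references (horizontal axis; points with bars of 1 SE) for 14 of the 15 genes with a lower and the 15 with a higher change against NC (vertical axis), with NC as reference in black, CEFT in orange and the mean of the 5 other treated groups in green. The genes were chosen on the black points, and SELP lies at -1.40 against NC and at -0.0071 against CEFT.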

How the data were processed

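Whole blood of 42 steers was collected into PAXgene tubes on 6 days, and stranded mRNA libraries were sequenced by the authors. Per the labels and the paper, reads were trimmed with Trimmomatic 0.39 and aligned with HISAT2 (2.1.1 in the submitters' processing notes, another version in the paper) to ARS-UCD1.3, and transcripts were assembled with StringTie 2.2.0. The authors then used prepDE.py3, which turns transcript coverage into whole numbers, so the deposited values are estimated counts per gene, neither normalized nor adjusted for lane. The annotation release is not given in the sources used here. The paper reports default parameters for HISAT2 and StringTie and names no strand setting. Overlapping or antisense genes and multi-copy families may share reads. The adjustments and test values the authors made later were not used. The table lists 33282 genes, and 19056 were tested because their CPM exceeded 0.2 in 12 or more libraries of the series, leaving 14226 untested. All columns matched a sample label.

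The change was tested in R 4.3.3 with edgeR 4.0.16 (TMM scaling, quasi-likelihood test, Benjamini-Hochberg FDR of 0.1 over all genes tested), with terms for steer, day and treatment by day, on the 72 OXYT and NC libraries, for which totals ran from 32.3 to 63.0 M counts. At this depth the minimum CPM corresponds to a handful of counts in a library, which limits the precision of low genes. Standard errors (SE) were taken as the size of the log2 difference divided by the square root of its F. The study tested single days with the likelihood ratio test of edgeR on counts adjusted by ComBat_seq. It kept genes also found by a mixed model (glmmSeq) with breed and animal as random effects, which was not run here. The likelihood ratio test and the adjustment were run as separate alternatives, along with limma 3.58.1 (voom), DESeq2 1.42.0 and sva 3.50.0 (ComBat_seq). The edgeR model of the OXYT and NC libraries also gave the change within OXYT. The change against CEFT came from a separate model of the same form, fitted to the OXYT and CEFT libraries of all days. All libraries of the 42 steers entered the model against the 5 other treated groups, and levels on single days were tested on 6 and 6 libraries. CPM and changes of single steers are TMM-scaled, with a prior count of 2 on the log2 scale, and exact permutation tests over 6 and 6 steers were two-sided. The script was tested on simulated data.

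Libraries of a steer carry its name on every day, and this pairing was checked: after subtraction of the group means, day 0 and day 56 libraries of a steer correlated by 0.211 to 0.449 in 12 of 12 steers (median 0.339), against a median of -0.068 for different steers. Steer was therefore the block, and n counts steers. Named genes are the 15 of each direction with the smallest p and a mean level of at least 1 CPM, 5 genes behind the study's day 56 terms for oxytetracycline and up to 4 members of smallest p per list. Of the 15 with a lower change, 1 is not reported here. The members and the gene lists were chosen with earlier results of these data known. Gene spans and neighbours came from a RefSeq table of another assembly, ARS-UCD2.0, which was used for names and neighbours only.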

Additional observations from a re-analysis of the deposited data

Results flagged for a closer look

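The change from day 0 to day 56 differed between OXYT and NC for 294 genes and between OXYT and the mean of the 5 other treated groups for 662 genes, each by a test of the difference itself at FDR 0.1. Of the genes named in the report, the difference in log2 change, OXYT minus NC, was lower for PYGL (-0.87), CAP1 (-0.51), GSR (-0.71), PGD (-0.82), VPS41 (-0.42), GSN (-0.80), COPG2 (-0.43), SELP (-1.40), CD9 (-0.87), SCD (-0.66), FIP1L1 (-0.44), PRKAR1A (-0.37), TBC1D1 (-0.45) and GGA2 (-0.47), and for PSMD1 and NUP133 among the genes behind the study's day 56 terms (-0.39 and -0.50). It was higher for WRNIP1 (0.46), TFDP1 (0.52), KLHL36 (0.31), CPSF4 (0.43), SLC41A3 (0.67), ZNF74 (0.66), MIGA2 (0.40), POMGNT2 (0.70), ZNHIT3 (0.41), LOC112446759 (0.45), DLEC1 (0.75), LOC112442657 (0.42), MAP3K12 (0.54), CYHR1 (0.47) and MAPK8IP3 (0.57). Among 68 groups of 6 steers, the change of 34 genes in OXYT and in NC, 0 held a steer that stood apart by Dixon's test, but 30 of the 34 genes were chosen for a small p on the same changes, which favours steers that lie close together. Treatment, pen, order of handling and lane cannot be told apart for any of these differences.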

How the results depend on the processing

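The OXYT against NC count of 294 genes was 271 with RLE scaling, 296 with hemoglobin genes left out, 277 by the likelihood ratio test, 309 with limma voom, 408 with a CPM minimum of 1 and 421 with all libraries of the series in the model, all within 1.5 times the count reported. It moved further in 5 settings, to 132 after ComBat_seq by lane, 845 with DESeq2, 145 with no filter on low counts, 0 with the libraries of days 0 and 56 alone and 0 without steer as replicate block, the pairing of a steer's libraries. With 1 steer left out it ranged from 18 to 543. The share of higher calls, 52.4%, was 65.7% with the CPM minimum of 1, 71.7% with no filter and 62.2% with hemoglobin genes left out. Differences of named genes were recomputed in 1907 gene and setting pairs, of which 0 reversed, 369 lost FDR 0.1 and 57 gained it. The settings reuse the same libraries, in whole or in part, which favours a kept sign. Against CEFT, where 0 genes passed, DESeq2 gave 82, the likelihood ratio test 4 and limma voom 2, the count was 0 without the block, and leaving out 1 steer gave 0 to 20. Against the 5 other treated groups the 662 genes became 405 after ComBat_seq and 16 without the replicate block, stayed between 649 and 683 with RLE scaling, hemoglobin genes left out, the likelihood ratio test or limma voom, and ranged from 12 to 1203 with 1 OXYT steer left out. That comparison was not run with DESeq2, with other filters or with days 0 and 56 alone. Within OXYT all alternatives stayed within 1.5 times of 8719 genes (6317 without the block to 9219 with DESeq2), and 7738 to 8811 passed with 1 steer left out. For the level on day 0 DESeq2 gave 51 genes and the likelihood ratio test 8, with 0 to 1 on leaving out a steer. For the level on day 56, 2 genes in the report, the counts were 0 after ComBat_seq, 717 with DESeq2, 111 by the likelihood ratio test and 1 with limma voom, and 1 to 346 with a steer left out. The causes of these shifts were not tested. No scaling moved the median of all genes by more than 0.1 on the log2 scale. With 6 steers per group and a single pen per treatment, small differences could be missed, and genes near the CPM minimum rest on few counts.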

Other observations

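The next 4 genes, called with a lower change, were chosen after their values were seen and stand for no group. LIPA, the lysosomal acid lipase, differed by -0.74 (SE 0.18, FDR 0.0437), the sorting receptor SORT1 by -0.93 (SE 0.23, FDR 0.0453), the complement component C3 by -0.95 (SE 0.26, FDR 0.0699) and the protease inhibitor A2M by -0.86 (SE 0.21, FDR 0.0426). RPL3L had OXYT counts of 5147 to 11476 on day 0 and 2037 to 5579 on day 56, against 1638 to 5517 and 2990 to 8614 in NC, a difference of -1.83 (FDR 0.0428) on day 56, with opposite directions of the medians in the 2 groups.

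A few calls rest on entries that are at 0 in many libraries. Of the 294 genes, 5 had a fitted log2 difference beyond 3 in either direction. LOC112441542, BRIP1 and DNER were at 0 in all 6 NC libraries of one of the days, so their fitted differences depend on the prior count and no fold is given. SMPDL3B did not exceed 20 counts in any of the 24 libraries. ADRA2A, an adrenergic receptor, had 22 to 216 counts in OXYT on day 0 and 30 to 659 on day 56, and 31 to 617 and 24 to 63 in NC (FDR 0.0951). DCUN1D3 had 12 to 55 counts in OXYT on day 56 against 92 to 598 in NC, and 62 to 557 against 69 to 991 on day 0. The switch of COX3 between levels occurred in 1 OXYT library on day 0, 3 OXYT libraries on day 56, 2 NC libraries on day 0 and 1 NC library on day 56, and it gave that gene a difference of 6.32 with an SE of 4.36.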
